A study of Mus musculus with 13 samples.

Results

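ORR1 and MT elements are mammalian apparent LTR retrotransposons (MaLR), and their coverage by stranded RNA sequencing was compared between mouse tumor cells with and without Tdg. They were chosen by name: of 2035 entries listed in each table, 99 had names beginning with ORR1, MTA to MTE or MLT, and 39 of these had a value other than 0 in at least 1 of 13 libraries, out of 889 such entries in all. These 39 were 17 of 27 ORR1 entries, 9 of 17 MT entries and 13 of 22 entries named MLTR. The 33 entries of the families MLT1, MLT2 and MLT-int, older elements that mammals share, were listed at 0 on both strands of every library. The name rule therefore took in no MLT element. It took in the 13 MLTR entries instead, which carry the class ERV2 in their names, whereas all 26 ORR1 and MT entries carry the class ERV3. The MLTR entries are not MaLR elements by that class, and they are given separately.

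MaLR elements are LTR retrotransposons of the ERVL lineage that do not encode the proteins needed for their own transposition. Each copy consists of an internal sequence between LTRs, which hold the promoter, and many copies have been reduced to a single LTR. MT elements are known in the mouse for abundant transcription in oocytes, where their LTRs serve as alternative promoters of genes: an MTC LTR drives the oocyte form of Dicer. Tdg encodes thymine DNA glycosylase, a base excision repair enzyme that also removes oxidized forms of methylcytosine, and Trp53 encodes the tumor suppressor p53.

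The libraries came from ribosome-depleted total RNA of 2 mouse lines. The B16 melanoma line was given as wild type (WT), Trp53 knockout (Trp53 KO), Tdg knockout (Tdg KO) and double knockout of both genes (DKO), with 2 libraries each. The KP lung adenocarcinoma (LUAD) line was given as WT with 2 libraries and Tdg knockout with 3, and the labels do not state the Trp53 status of KP cells. The labels name no treatment, do not say how the knockouts were made or whether a group is a single clone, and do not say whether libraries of a group came from separate cultures, so p-values measure only the spread between these libraries. The tables were not taken to hold protein-coding genes, so neither the knockouts nor the cell identities were checked here.

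Values are mean read coverage per base of each consensus sequence, on the sense strand and on the antisense strand, and are thus already per length. The 32 ORR1, MT and MLTR entries with 6 or more nonzero values held coverage worth 1348 to 3622 fragments per B16 library in sense and 1944 to 6159 in antisense. Per KP library it was worth 432 to 903 and 529 to 933. Related entries can hold the same reads, so these sums are not counts of separate fragments. The values are not scaled to sequencing depth, which is unknown, so a change in them combines a change in RNA with a change in depth. Over all features the median log2 change between DKO and Trp53 KO was 1.67 as deposited, and became 0.60 after median-ratio scaling, -0.10 after quantile normalization and -0.38 after median centring. The 7SL RNA consensus held 85.3% to 99.1% of all coverage and differed widely within groups. In bulk RNA, transcription in more cells and more RNA per cell cannot be told apart.

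The younger letter groups held nearly all of the coverage of these consensus sequences. All 7 ORR1A entries and 5 of 6 ORR1B entries had coverage, against 2 of 5 ORR1C and 3 of 4 ORR1D entries and none of the 4 ORR1E, ORR1F and ORR1G entries. All 3 MTA, 3 MTB and 2 MTC entries and the single MTD entry had coverage, and none of the 8 MTE entries did. Whether reads from older copies can align to these consensus sequences was not tested, and the alignment settings are not given. An entry without coverage, those of the MLT families included, therefore does not show that its copies make no RNA. Where the length could be inferred from the steps between values, ORR1 LTR entries other than ORR1D1_LTR spanned 326 to 394 bases, MT LTR entries 396 to 421 bases, and internal parts 1098 to 1784 bases.

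MTAI, the internal part of MTA, had the highest sense coverage in B16, with a mean of 167 ± 52.8 (SD, n = 8 libraries of 4 genotypes). MTA followed with 109.9 ± 54.5, MTA_Mm_LTR with 107 ± 49.8 and ORR1AI, the internal part of ORR1A, with 95.7 ± 29.1. These neighbours in the order did not differ beyond their spread. In antisense the order began with MTAI at 217 ± 87.1, MTA at 186 ± 78.9 and MTA_Mm_LTR at 173 ± 77.4. In KP the leading sense entries were MTAI at 47.4 ± 19.3 (SD, n = 5), MTA_Mm_LTR at 40.3 ± 10.3 and MTA at 38.1 ± 8.07, and the leading antisense entry was MTA at 78.1 ± 14.6. MTA and MTA_Mm_LTR were close copies in these data: their ratio lay between 0.806 and 1.08 in sense and between 0.987 and 1.12 in antisense over all 13 libraries. Related consensus sequences can hold the same reads, so these entries are not separate measurements.

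MTA sense coverage was 112 and 92.9 in B16 WT, 53.3 and 117 in Trp53 KO, 71.3 and 68.5 in Tdg KO, and 225 and 139 in DKO, and 31.6 and 33.2 in KP WT against 32.7, 50.02 and 42.8 in KP Tdg KO. MTA antisense coverage was 172 and 173 in B16 WT, 138 and 125 in Trp53 KO, 169 and 120.3 in Tdg KO, and 363 and 223 in DKO, and 85.5 and 71.2 in KP WT against 55.7, 91.2 and 86.8 in KP Tdg KO. On both strands the DKO libraries were the highest of the 8 B16 libraries, and the KP groups overlapped. MTAI sense coverage was 112 and 199 in B16 WT, 129.6 and 83.7 in Trp53 KO, 207 and 165 in Tdg KO and 217 and 221 in DKO. MTAI antisense coverage was 134 and 242 in WT, 149 and 144 in Trp53 KO, 239.6 and 161 in Tdg KO and 385 and 279 in DKO. MTAI in DKO thus lay above every other B16 library, but only just in sense. In KP, MTAI sense coverage was 35.7 and 35.4 in WT and 34.5, 52.3 and 79.3 in Tdg KO, and its antisense coverage was 11.03 and 14.8 in WT and 18.1, 21.5 and 57.2 in Tdg KO, the groups overlapping in sense and not in antisense.

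MTB_Rn_LTR, an LTR entry of the MTB family, had sense coverage of 62.4 and 51.2 in B16 WT, 27.0 and 66.7 in Trp53 KO, 43.1 and 35.4 in Tdg KO and 149 and 82.2 in DKO. Its antisense coverage was 153 and 109.5 in WT, 114 and 103 in Trp53 KO, 115 and 87.0 in Tdg KO and 308 and 141 in DKO. The lower DKO library lay above all Trp53 KO libraries on both strands, and below 1 WT library in antisense. In KP, MTB_Rn_LTR had sense coverage of 15.7 and 15.9 in WT and 27.4, 29.0 and 22.2 in Tdg KO, and antisense coverage of 59.3 and 61.4 against 48.3, 70.2 and 53.9. The KP groups did not overlap in sense and overlapped in antisense.

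**Figure D1:**
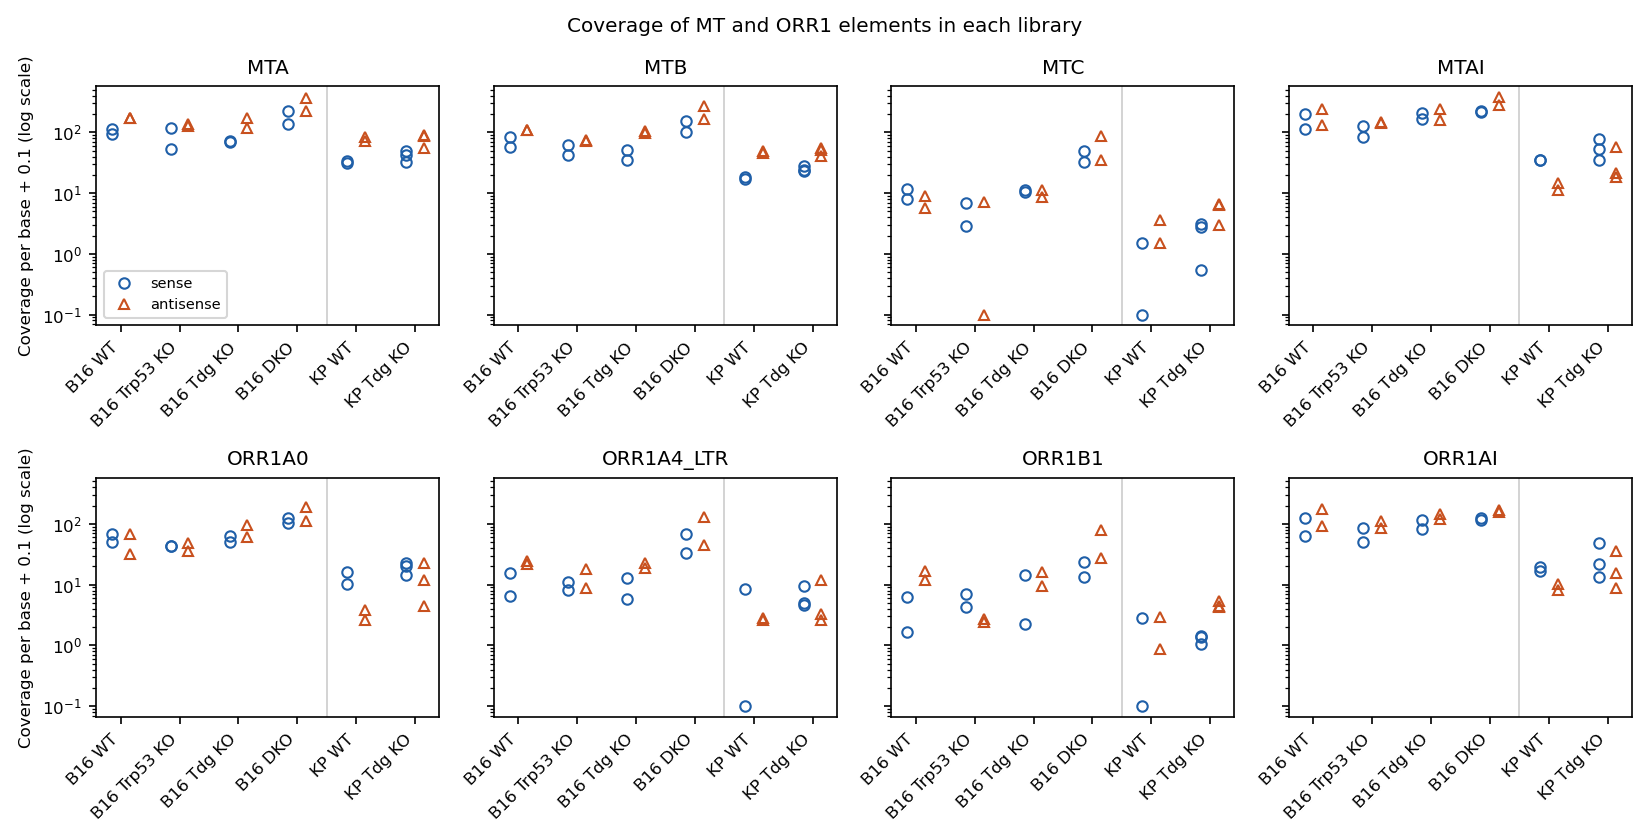
Coverage per base plus 0.1 on a log axis for 8 MT and ORR1 entries, with 1 point per library (circles sense, triangles antisense) by genotype; the vertical line separates the B16 and KP tables, which share no scale of depth. The DKO libraries are the highest of B16 for MTA, MTB, MTC, ORR1A0 and ORR1A4_LTR on both strands, while ORR1AI in DKO lies within the range of WT.

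Among the ORR1 entries, coverage was led by ORR1AI. Its sense coverage was 64.1 and 124 in B16 WT, 85.0 and 49.6 in Trp53 KO, 118 and 83.4 in Tdg KO and 118 and 123 in DKO, and its antisense coverage was 92.0 and 177, 114 and 84.6, 144 and 122, and 172 and 155 in the same order of groups. The DKO libraries exceeded both Trp53 KO libraries and lay within the range of WT. In KP, ORR1AI was at 19.2 and 16.6 in WT against 13.5, 22.1 and 49.2 in Tdg KO in sense, and at 8.21 and 10.2 against 8.83, 15.3 and 35.4 in antisense, with overlapping groups on both strands.

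ORR1A0, an LTR entry of the ORR1A group, had sense coverage of 51.1 and 67.0 in B16 WT, 43.3 and 43.2 in Trp53 KO, 64.3 and 51.1 in Tdg KO and 124 and 105 in DKO. Its antisense coverage was 31.8 and 66.9 in WT, 49.2 and 35.3 in Trp53 KO, 94.5 and 60.0 in Tdg KO and 186 and 110.3 in DKO. ORR1A0 was higher in DKO than in every other B16 library on both strands. In KP, ORR1A0 was at 10.3 and 15.8 in WT against 14.1, 20.5 and 22.3 in Tdg KO in sense, and at 2.50 and 3.70 against 11.7, 4.29 and 22.9 in antisense, where the groups did not overlap.

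ORR1A2_LTR, another LTR of that group, had sense coverage of 36.5 and 32.2 in B16 WT, 27.1 and 29.1 in Trp53 KO, 46.8 and 24.3 in Tdg KO and 129 and 77.7 in DKO. Its antisense coverage was 57.2 and 86.8 in WT, 35.1 and 41.8 in Trp53 KO, 73.1 and 44.6 in Tdg KO and 224 and 103 in DKO. ORR1A_Rn_LTR had sense coverage of 45.4 and 52.4 in WT, 34.5 and 40.4 in Trp53 KO, 39.5 and 27.8 in Tdg KO and 116 and 101 in DKO, and antisense coverage of 57.9 and 79.5, 41.7 and 45.02, 62.4 and 51.5, and 209 and 110.2. Both entries were higher in the DKO libraries than in every other B16 library on both strands. In KP, ORR1A2_LTR was at 4.44 and 7.48 in WT against 11.4, 16.8 and 18.9 in Tdg KO in sense, and at 8.40 and 7.91 against 18.6, 11.9 and 16.5 in antisense, without overlap on either strand. ORR1A_Rn_LTR in KP was at 13.0 and 18.5 in WT against 11.7, 15.3 and 22.9 in Tdg KO in sense, and at 12.9 and 12.0 against 17.0, 11.7 and 19.2 in antisense, with overlap on both strands.

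The MTA and MTB LTRs were covered more in antisense than in sense. In all 13 libraries this held for MTA, MTA_Mm_LTR, MTB, MTB_Mm_LTR and MTB_Rn_LTR, and the antisense share of MTA coverage ran from 51.8% to 73.0%. The MTC LTR was mixed, with sense above antisense in 5 of 8 B16 libraries and antisense above sense in all 5 KP libraries, and MTD had coverage in 1 B16 library on each strand. The internal parts differed between the lines: the antisense share of MTAI was 49.4% to 63.9% in B16 and 23.6% to 41.9% in KP, and that of ORR1AI was 55.0% to 63.1% and 30.0% to 41.8%. The ranges of the lines did not overlap for either internal part, and because the lines are in separate tables the difference was not tested. A share within a library does not depend on its depth. By means over libraries, the entry with the largest excess of antisense in B16 was ORR1C2_LTR, with means of 0.0820 in sense and 2.76 in antisense and a value of 14.7 in DKO library 1, and the entry with the largest excess of sense was ORR1D-int, at 0.0599 and 0.0237. In KP these were ORR1B2, at 0.0316 in sense and 0.493 in antisense, and ORR1D1_LTR, at 0.316 in sense and 0 in antisense, all at the level of single fragments.

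**Figure D2:**
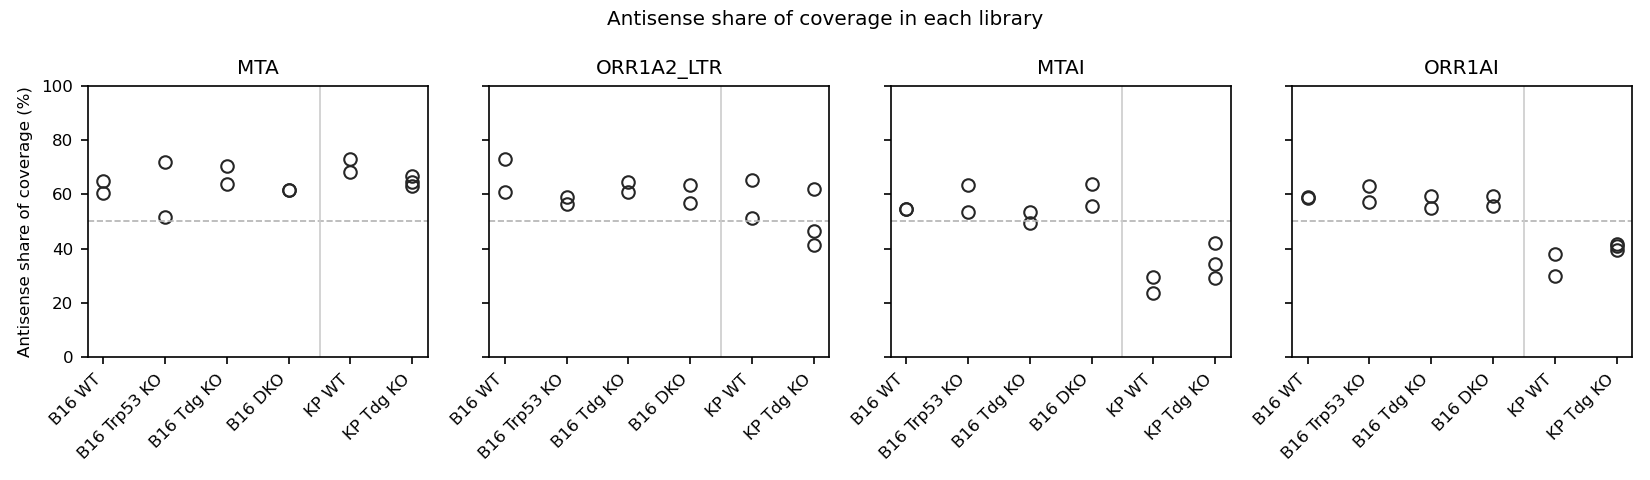
Antisense share of coverage in percent for 4 entries, 1 point per library by genotype, with a dashed line where the strands are equal. MTA lies above the line in every library, and the internal parts MTAI and ORR1AI lie below it in every KP library and near or above it in B16.

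Loss of Tdg was compared first in Trp53 KO cells, as DKO against Trp53 KO. Of 78 ORR1, MT and MLTR features (an entry on a strand), 68 had mean coverage of at least 0.1 in B16 and were tested. Some passed that filter only through the group where they are high, so counts over them are descriptions. Of the 68, 28 rose and 0 fell by limma with an adjusted p under 0.05, where 29.5% of all 1246 features rose and 1.52% fell. In 54 of the 68 both DKO libraries exceeded both Trp53 KO libraries, against 68.9% of all features. The median log2 change was 1.87, or 1.55 where features with a group at 0 took their lower bounds, against 1.67 and 1.18 over all features. ORR1 features rose in 16 of 31 cases, MT features in 9 of 16 and MLTR features in 3 of 21, with medians of 2.37, 1.29 and 1.92 (1.78, 1.29 and 1.72 with bounds). Under the other scalings few of these passed: median-ratio scaling left 4 rises and 1 fall, where 6.18% of all features rose and 3.93% fell. Median centring left 1 rise and 2 falls, where 2.09% and 8.83% of all did, and quantile normalization left 1 rise and 1 fall, where 3.05% and 4.17% did. DKO library 1 was the highest B16 library for 52 of the 68 features, a count without its share over all features. Its summed coverage of repeats other than 7SL was also highest, at 46967 against 29867 in DKO library 2. Fewer features were called without DKO library 1 or without either Trp53 KO library, in fits that leave 1 library in a group. The median log2 change of ORR1A LTRs was 1.45 without DKO library 1 and 2.41 without DKO library 2. Fitted on the 2 compared groups alone, 0 of the 68 passed.

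MTC, the family that includes the oocyte Dicer promoter, changed most among the MT elements. MTC sense coverage was 7.84 and 11.6 in WT, 2.76 and 6.87 in Trp53 KO, 11.2 and 10.2 in Tdg KO and 49.0 and 32.7 in DKO. All DKO values lay above all others, and sense coverage rose by a log2 change of 3.17 (SE 0.50, adjusted p = 0.0163 by limma). MTC antisense coverage was 5.603 and 8.80 in WT, 0 and 6.97 in Trp53 KO, 11.1 and 8.47 in Tdg KO and 85.8 and 34.8 in DKO, again with DKO highest, and it rose (adjusted p = 0.0474). Its fitted log2 change of 6.02 (SE 1.80) depends on the 0 in Trp53 KO library 1 and on the pseudocount, and without that library it was 2.95 and did not pass (adjusted p = 0.0713). The MTC internal part MTC_I rose in antisense by a log2 change of 2.83 (adjusted p = 0.0242), from 1.65 and 1.66 to 20.6 and 7.43. In sense MTC_I measured 1.14 and 1.38 in Trp53 KO against 14.8 and 2.65 in DKO (adjusted p = 0.107). The rises of MTC did not pass after any of the other scalings, where the sense log2 change lay between 1.12 and 1.78.

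The more abundant MT elements changed less. Over all features 29.5% rose, and the MT entries include related ones that can hold the same reads. Of 6 MTB features 4 rose, with a median log2 change of 1.34 that became -0.12 with median-ratio scaling and -0.71 with median centring. Of 4 MTA LTR features 2 rose, with a median of 1.11. The features that rose were MTA and MTA_Mm_LTR in antisense (log2 change 1.11 for each, adjusted p = 0.0410 and 0.0484) and MTB and MTB_Mm_LTR on both strands. MTA in sense had a log2 change of 1.16 (adjusted p = 0.0755), MTAI had 1.07 in sense and 1.16 in antisense (adjusted p = 0.0648 and 0.0570), and MTB_Rn_LTR had 1.38 and 0.94 (adjusted p = 0.0715 and 0.114). After median centring, MTA, MTA_Mm_LTR, MTAI, MTB, MTB_Mm_LTR and MTB_Rn_LTR turned to the opposite sign on both strands, without passing. As deposited, the changes of these entries lay below the median change of all features, which was 1.67.

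ORR1A LTRs rose in 9 of 12 features, where 29.5% of all features rose, with a median log2 change of 1.91 (-0.14 after median centring). The 12 features are strands of 6 related entries that can hold the same reads, so they are not separate rises. ORR1AI had changes of 0.89 in sense and 0.73 in antisense and did not pass by limma (adjusted p = 0.134 and 0.145). ORR1A0 rose by 1.40 in sense (SE 0.26, adjusted p = 0.0185) and 1.78 in antisense (adjusted p = 0.0356). ORR1A_Rn_LTR rose by 1.53 and 1.81 (adjusted p = 0.0175 and 0.0197), and ORR1A2_LTR by 1.83 and 1.99 (adjusted p = 0.0214 and 0.0242). ORR1A4_LTR rose from 10.8 and 8.11 to 67.6 and 33.6 in sense and from 17.8 and 8.74 to 128 and 44.6 in antisense (adjusted p = 0.0349 and 0.0214). After median centring ORR1A0, ORR1A_Rn_LTR and ORR1A2_LTR turned negative on both strands without passing. The median over all features was negative as well after that scaling. ORR1AI fell in antisense after it (log2 change -1.32, adjusted p = 0.0499 by limma).

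ORR1B entries showed the largest rises among the ORR1 features, from low coverage. ORR1B1 antisense coverage was 16.6 and 11.9 in WT, 2.30 and 2.60 in Trp53 KO, 16.3 and 9.46 in Tdg KO and 79.6 and 27.1 in DKO. Both DKO libraries exceeded all others and both Trp53 KO libraries were lowest, and the log2 change was 4.19 (SE 0.57, adjusted p = 0.0154 by limma). Of the 68 features, ORR1B1 in antisense alone (1 feature) rose under all 4 scalings, with changes of 2.76, 2.14 and 2.76 after median-ratio scaling, median centring and quantile normalization (adjusted p = 0.0300, 0.0316 and 0.0229). Over all features 23 of 1246 rose under all 4. Without Trp53 KO library 1 or 2 the ORR1B1 change was 4.11 and 4.28 and did not pass (adjusted p = 0.0644 and 0.0683), and without DKO library 1 it was 3.42 and passed (adjusted p = 0.0232). ORR1B1 in sense measured 6.88 and 4.23 in Trp53 KO against 23.3 and 13.0 in DKO, but also 14.1 in 1 Tdg KO library, and did not pass (adjusted p = 0.212).

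The internal part ORR1B1-int rose on both strands. Its antisense coverage was 1.60 and 1.21 in WT, 0.355 and 0.504 in Trp53 KO, 1.28 and 1.15 in Tdg KO and 6.85 and 3.30 in DKO (log2 change 3.21, SE 0.56, adjusted p = 0.0169). Its sense coverage was 0.166 and 1.12 in WT, 0.596 and 0 in Trp53 KO, 1.74 and 0.653 in Tdg KO and 4.06 and 4.09 in DKO (log2 change 3.98, SE 1.18, adjusted p = 0.0460). On both strands DKO lay above all other B16 libraries. ORR1B in antisense was at 0 in the Trp53 KO libraries and at 27.2 and 7.33 in the DKO libraries, which is at least 6.67-fold higher (adjusted p = 0.0354), or at least 2.84-fold without DKO library 1, with 0 and 4.55 in WT and 0 and 0.697 in Tdg KO. ORR1B2 in antisense rose by a log2 change of 3.06 (adjusted p = 0.0210), from 0.725 and 0.937 to 10.8 and 5.31. ORR1BI in sense and ORR1D1_LTR in antisense also passed by limma (adjusted p = 0.0197 and 0.0213), and both were at 0 in the Trp53 KO libraries. ORR1BI, at 0.545 and 0.316 in DKO, was under the floor of 3 fragments per library. ORR1D1_LTR was at 3.34 and 0.599 in DKO, and its floor is uncertain because its inferred length of 187 bases is unreliable. No fold is given for either.

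**Figure D3:**
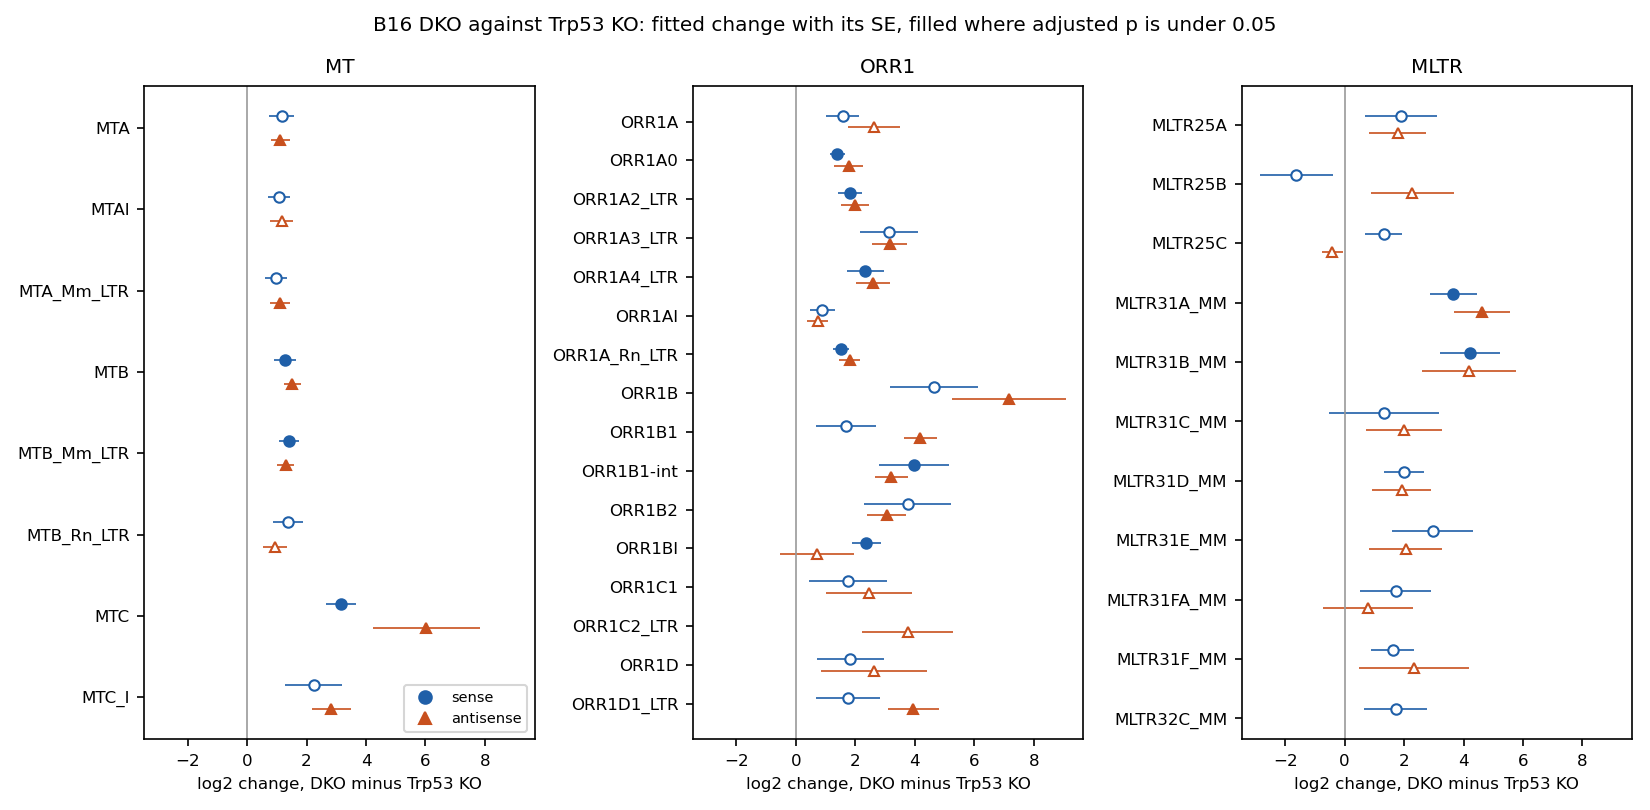
Fitted log2 change of DKO minus Trp53 KO with its SE for each ORR1, MT and MLTR feature tested, filled where the limma adjusted p is under 0.05, on values as deposited. Among MT and ORR1, MTC and ORR1B lie farthest to the right and the internal parts MTAI and ORR1AI among the nearest to 0; changes against a group at 0 depend on the pseudocount, and the median over all features was 1.67.

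The MLTR entries, of class ERV2, had low coverage in B16 and almost none in KP. MLTR31B_MM sense coverage was 1.07 and 2.63 in WT, 0.532 and 0 in Trp53 KO, 2.11 and 1.58 in Tdg KO and 6.95 and 3.01 in DKO, and rose in DKO against Trp53 KO (log2 change 4.22, SE 1.01, adjusted p = 0.0255). Its antisense coverage was 2.66 and 7.80 in WT, 3.09 and 0 in Trp53 KO, 9.03 and 5.84 in Tdg KO and 18.6 and 5.58 in DKO, which did not pass (adjusted p = 0.0795). DKO was highest in sense, while in antisense the second DKO library lay below libraries of WT and Tdg KO. MLTR31A_MM rose on both strands: in sense from 0.360 and 0 to 3.18 and 2.13 (adjusted p = 0.0214), and in antisense from 0 in both libraries to 5.27 and 1.03 (adjusted p = 0.0197). The second of these DKO values is under the floor of 3 fragments, which is 1.54 for this entry, so no fold is given. The WT and Tdg KO libraries of MLTR31A_MM, at 2.10 to 3.07 in sense, resembled DKO, and Trp53 KO stood apart as low.

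MLTR31D_MM, MLTR31F_MM and MLTR25C did not pass. MLTR31D_MM sense coverage was 2.01 and 3.49 in WT, 1.04 and 4.13 in Trp53 KO, 4.16 and 5.16 in Tdg KO and 7.91 and 9.46 in DKO (adjusted p = 0.0628), and its antisense coverage was 1.52 and 5.77, 1.03 and 2.03, 5.07 and 1.40, and 10.9 and 3.06. MLTR31F_MM sense coverage was 3.78 and 1.02 in WT, 1.10 and 1.09 in Trp53 KO, 1.10 and 0.929 in Tdg KO and 2.48 and 5.15 in DKO, and its antisense coverage was 2.67 and 4.98, 0 and 2.19, 2.41 and 0.549, and 9.43 and 0.515. DKO overlapped WT in 3 of these 4 features. Of the 68 features, 2 had negative log2 changes as deposited, MLTR25B in sense and MLTR25C in antisense. MLTR25B in sense was at 0 in every WT and DKO library, 0 and 0.841 in Trp53 KO and 0 and 0.485 in Tdg KO, and its change of -1.62 (adjusted p = 0.304) rests on 1 Trp53 KO library. MLTR25C was better covered: its sense coverage was 1.03 and 3.59 in WT, 2.09 and 2.13 in Trp53 KO, 2.27 and 2.75 in Tdg KO and 4.84 and 6.06 in DKO, while its antisense coverage was 6.56 and 5.61, 6.35 and 5.01, 5.44 and 3.82, and 4.45 and 4.02. Both DKO libraries lay below both Trp53 KO libraries in antisense (log2 change -0.41, adjusted p = 0.358). The MLTR25C antisense change passed as a fall after each of the other scalings, with log2 changes of -1.84, -2.46 and -2.23 after median-ratio scaling, median centring and quantile normalization (adjusted p = 0.0317, 0.0136 and 0.0324).

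The order of the letter groups by median log2 change was alike in its extremes under the 4 scalings. Median centring moves every feature by the same amount, so it keeps the deposited order by construction. Median-ratio scaling can change the order only through the pseudocount at low coverage. The likeness under these scalings is therefore not separate evidence, and only quantile normalization could change the order freely. MTC LTR had the highest median in each, at 4.60 as deposited, 3.33 after median-ratio scaling, 3.22 after quantile normalization and 2.55 after median centring. ORR1B LTR followed at 3.98, 2.79, 2.30 and 1.93. The internal part of ORR1A had the lowest median of the MaLR groups in each, at 0.81, -0.64, -0.37 and -1.24, and MTA LTR lay near it at 1.11, -0.35, -0.05 and -0.94. Fitted values against a library at 0 enter the MTC and ORR1B medians, and the MTC median is that of 2 features. The order at the top depended on single libraries: without Trp53 KO library 1, where MTC antisense coverage was 0, the MTC LTR median as deposited was 2.74 and that of ORR1B LTR 4.38. Without DKO library 2 they were 5.07 and 5.15, also with ORR1B higher, and without DKO library 1 or Trp53 KO library 2 MTC stayed above ORR1B, at 4.13 against 2.62 and at 6.45 against 3.75. At the other end, MTA LTR lay below the internal part of ORR1A without DKO library 1, at 0.73 against 0.79, and without Trp53 KO library 1, at 0.87 against 1.11. Over single features, 97.1% of the 68 lay above 0 as deposited against 90.3% of all features, and 73.5%, 69.1% and 42.6% did after median-ratio scaling, quantile normalization and median centring, against 59.6%, 46.0% and 40.8% of all.

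**Figure D4:**
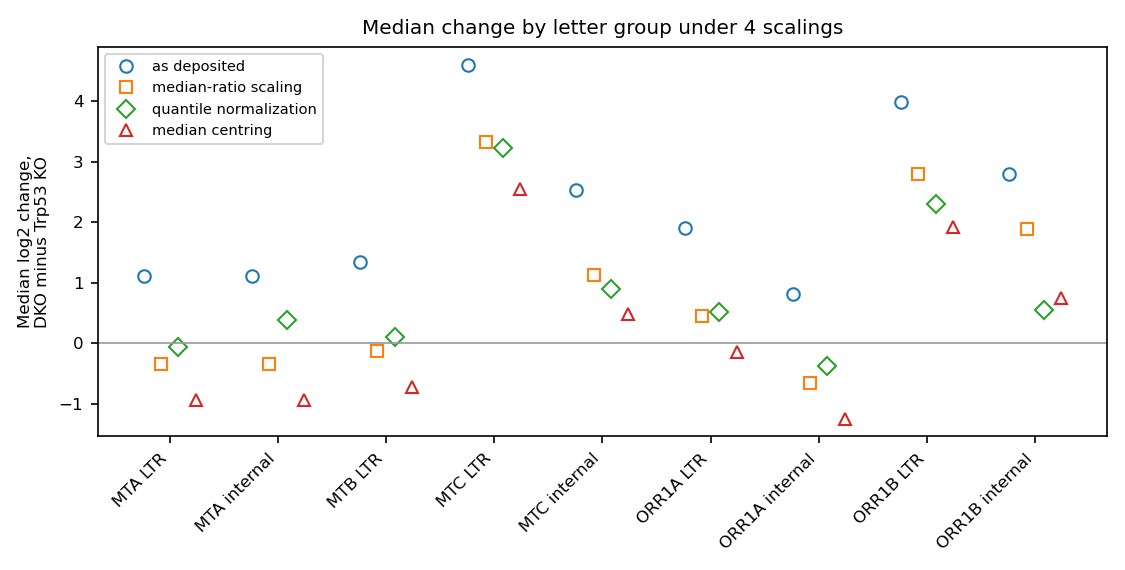
Median log2 change of DKO minus Trp53 KO for each letter group of MaLR elements, with 1 symbol for each of 4 scalings. The choice of scaling moves every group up or down. With all libraries MTC LTR and ORR1B LTR are highest and the ORR1A internal part lowest in each. Median centring keeps the deposited order by construction, and median-ratio scaling nearly does. Without Trp53 KO library 1 or DKO library 2 ORR1B LTR is above MTC LTR as deposited.

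Ratios between entries within a library do not depend on its depth. Of 11 such ratios taken on each strand, chosen after the values were seen, both DKO libraries lay above all 6 other B16 libraries in 4 in sense and 4 in antisense, and below them in 1 in antisense. The ratio of MTC to MTA in sense was 0.218 and 0.235 in DKO, against 0.0700 and 0.125 in WT, 0.0517 and 0.0588 in Trp53 KO, and 0.157 and 0.149 in Tdg KO. In antisense it was 0.236 and 0.156 in DKO and at most 0.0704 elsewhere in B16. The ratio of ORR1B1-int to ORR1AI, which compares internal parts, was 0.0345 and 0.0331 in DKO in sense and at most 0.0148 elsewhere, and 0.0399 and 0.0213 in antisense and at most 0.0173 elsewhere. That of ORR1A2_LTR to ORR1AI, an LTR against an internal part, was 1.10 and 0.630 in DKO in sense and at most 0.586 elsewhere, and 1.31 and 0.664 in antisense and at most 0.622 elsewhere.

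For MTA the ratio of LTR to internal part overlapped between DKO and the other groups. The ratio of MTA_Mm_LTR to MTAI in sense was 0.996 and 0.587 in DKO and ran from 0.317 to 1.35 in the other B16 libraries. The internal parts kept near each other: ORR1AI over MTAI in sense lay between 0.507 and 0.656 in all 8 B16 libraries, with DKO inside that range, while in antisense DKO was lower, at 0.446 and 0.555 against at least 0.586. All ORR1 over all MT coverage overlapped between DKO and the rest on both strands. Because these ratios were chosen after their values were seen, they are descriptions with no test.

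**Figure D5:**
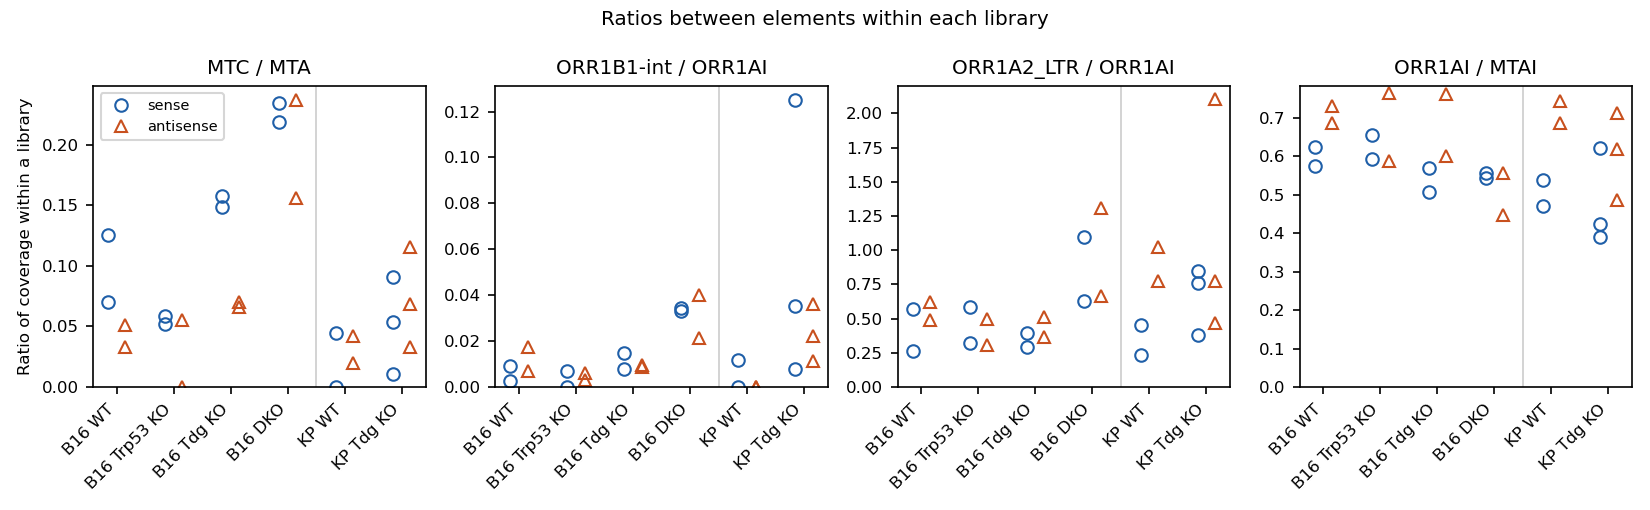
Ratios of coverage between entries within each library, with 1 point per library and strand (circles sense, triangles antisense). MTC over MTA, ORR1B1-int over ORR1AI and ORR1A2_LTR over ORR1AI are higher in both DKO libraries than in every other B16 library on each strand, and ORR1AI over MTAI is not.

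The ORR1 and MT entries together held 11.2% and 10.7% of the summed coverage of all repeats other than 7SL in DKO. They held 5.69% and 7.74% in Trp53 KO, 7.46% and 9.79% in WT and 9.47% and 9.40% in Tdg KO. DKO was highest and the Trp53 KO range overlapped that of WT. In KP the share was 10.6% and 10.03% in WT and 3.79%, 7.51% and 7.13% in Tdg KO, without overlap and in the opposite direction. In those KP libraries the summed coverage of all repeats other than 7SL was 5242 and 5569 in WT and 15375, 10228 and 11900.2 in Tdg KO. The sum over the ORR1, MT and MLTR entries was 559 and 563 in WT and 586, 776 and 857 in Tdg KO.

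No change in strand balance passed the test in any comparison of these entries. Of 35 entries tested in DKO against Trp53 KO as log2 of sense over antisense, 0 passed by limma and 1 had an unadjusted p under 0.05, where 10 of 730 elements (1.37%) passed and 16% had such a p. In each of the other comparisons 0 entries passed, and 0 of all elements did.

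DKO was compared with Tdg KO and with WT as well, comparisons that share the DKO libraries with the one above. Against Tdg KO, 1 of 68 features rose and 0 fell by limma, where 3.05% of all features rose and 0.0803% fell. This was ORR1A_Rn_LTR in sense, at 39.5 and 27.8 in Tdg KO and 116 and 101 in DKO (log2 change 1.70, SE 0.27, adjusted p = 0.0430), and it did not pass under the other scalings or with any 1 library other than DKO library 2 left out. More features passed without DKO library 2, in a fit that leaves 1 DKO library and whose share over all features is not given. In 43 of 68 features both DKO libraries exceeded both Tdg KO libraries, against 62.1% of all features, and the median log2 change was 1.42, against 1.14 over all.

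Against WT, 0 of 68 features passed by limma, where 4.09% of all features rose and 0.0803% fell. At an unadjusted p under 0.05, 22 of the 68 were higher in DKO and 0 lower, where 28.5% and 1.28% of all features were. The smallest adjusted p was 0.0506, for ORR1BI in sense. ORR1B2 in antisense followed, at 0.820 and 0.817 in WT and 10.8 and 5.31 in DKO (log2 change 3.07, adjusted p = 0.0518), and MTC_I in antisense, at 1.10 and 2.02 and at 20.6 and 7.43 (log2 change 2.97, adjusted p = 0.0555). In 39 of 68 features both DKO libraries exceeded both WT libraries, against 54.7% of all. More features passed without DKO library 2, in a fit that leaves 1 DKO library and whose share over all features is not given.

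In B16 cells with Trp53, loss of Tdg came with no call. For Tdg KO against WT, 0 of 68 features passed by limma and 0% of all features did, with 1 feature higher and 2 lower at an unadjusted p under 0.05, against 1.2% and 2.17% of all. Both Tdg KO libraries exceeded both WT libraries in 5 of 68 features, against 6.5% of all. Those at an unadjusted p under 0.05 were ORR1B2 sense, at 0 in both WT libraries against 2.46 and 0.605 in Tdg KO, MLTR31FA_MM sense, at 4.04 and 2.08 against 1.04 and 0, and ORR1D1_LTR antisense, at 0.701 and 1.20 against 0 in both. Of the best-covered entries, MTAI overlapped between these groups on both strands, and MTA in sense was lower in both Tdg KO libraries, at 71.3 and 68.5 against 112 and 92.9 (log2 change -0.55, unadjusted p = 0.249).

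For Trp53 KO against WT, 0 of 68 features passed and 0% of all did, with 0 higher and 7 lower at an unadjusted p under 0.05, against 1.28% and 5.22% of all. Both Trp53 KO libraries exceeded both WT libraries in 0 of 68, against 3.61% of all. The smallest p belonged to MLTR31A_MM in antisense, at 1.00 and 3.41 in WT and 0 in both Trp53 KO libraries, ORR1B1 in antisense (log2 change -2.48, adjusted p = 0.377), and MLTR31A_MM in sense (log2 change -3.46, adjusted p = 0.377). The median log2 change of the 68 features was -0.41, as over all features (-0.41). The mean of the Trp53 KO libraries was the lowest of the 4 groups in 39 of 68 features. The share over all features is not given, so this count is not a result about these entries.

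Whether the change with Tdg loss differed between Trp53 KO and WT cells was tested as an interaction. By limma 0 of 68 features and 0% of all features passed, with 29 of the 68 positive and 0 negative at an unadjusted p under 0.05, against 34.3% and 0.803% of all. The smallest adjusted p was 0.0757, shared by ORR1D1_LTR in antisense, ORR1B1 in antisense (log2 difference 4.37, SE 0.80) and ORR1A_Rn_LTR in sense (2.08, SE 0.39), among others. Some features passed without DKO library 1 or 2, in fits that leave 1 DKO library and whose shares over all features are not given.

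In KP, loss of Tdg came with 0 of 55 features called by limma, and 0% of 984 features were called. At an unadjusted p under 0.05, 5 were higher and 0 lower, against 4.47% and 0.407% of all, and the smallest adjusted p was 0.777. In 15 of the 55, all Tdg KO libraries exceeded both WT libraries, against 19.2% of all features, and the median log2 change was 0.88 (0.29 with bounds) against 0.75 (0.42) over all. The smallest p belonged to MLTR31B_MM in sense, which was at 0 in WT against 1.06, 0.528 and 0.525 in Tdg KO, under the floor. ORR1A in sense was at 1.57 and 1.26 in WT against 4.35, 11.6 and 6.40 in Tdg KO (log2 change 2.21, SE 0.66, adjusted p = 0.777), and ORR1A3_LTR in sense was at 2.29 and 1.26 and at 6.57, 10.3 and 5.30 (log2 change 1.997, SE 0.64, adjusted p = 0.777). The KP groups did not overlap for either.

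ORR1B and MTC entries in KP rested on few fragments. MTC was at 1.41 and 0 in WT against 2.96, 2.67 and 0.442 in Tdg KO in sense, and at 3.58 and 1.41 against 6.42, 6.27 and 2.86 in antisense, with overlapping groups on both strands. ORR1B1 in antisense was at 0.772 and 2.88 in WT against 5.26, 4.31 and 4.13 in Tdg KO, without overlap (log2 change 1.53, adjusted p = 0.777). The ratio of MTC to MTA overlapped between the KP groups on both strands. Of the 11 ratios on each strand, the KP groups did not overlap in 2 in antisense: ORR1B1-int to ORR1AI was 0 in WT against 0.0223, 0.0361 and 0.0111 in Tdg KO, and MTA_Mm_LTR to MTAI was 7.08 and 4.86 in WT and 2.97, 4.08 and 1.40 in Tdg KO.

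MERVL and its MT2 LTRs, the elements whose proteins MaLR elements are thought to have used, were measured alongside. Of 18 MERVL and MT2 features 4 rose in DKO against Trp53 KO, with a median log2 change of 1.39, and 25 of 47 ORR1 and MT features did, with a median of 1.83. Over all features 29.5% rose, with a median of 1.67. In KP 0 of 17 passed by limma, with 0 at an unadjusted p under 0.05. The difference between the families was not tested.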

How the data were processed

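Per the labels, directional libraries were made from ribosome-depleted total RNA of B16 and KP cells. The deposited values are named piPipes mean signal and were taken as coverage per base of each consensus or piRNA locus, with sense and antisense columns per the file headers; the minus sign of the other, antisense columns was dropped. HISAT2, DESeq2 and mm10 appear in the submitters' processing notes without versions or roles. Depth, settings and how multiply matching reads were handled are not given here. All 32 members with 6 or more nonzero values were whole multiples of 1 step per entry, to within 0.001 covered bases and over all libraries, so the authors' coverage was not scaled to library size, and the step gives the length. A fragment was counted as 299 covered bases.

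Each strand of an entry was a feature. After 6 exact duplicates were removed, features averaging at least 0.1 in coverage were kept (1246 in B16, 984 in KP). Log2(coverage + 0.1) was fitted with limma 3.58.1 (lmFit, eBayes with trend, R 4.3.3), with all groups of a table in the fit, two-sided contrasts and Benjamini-Hochberg adjustment at 0.05 over all features. The pseudocount shrinks fold changes between low values above 0. Where a library is at 0, the fitted change depends on the pseudocount and can exceed the fold between the group means. The fits had 4 (B16) and 3 (KP) residual degrees of freedom. The 4 scalings are the deposited values, median centring, quantile normalization and median-ratio scaling, which divides coverage by a library's median ratio to the average of all libraries, taken over features averaging at least 1. Strand balance was log2 of sense over antisense. Lower bounds use a floor of 3 fragments per library and cover counting error only.

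Members and lists were chosen with earlier results of these data known. Named are the 4 entries of highest coverage per family, up to 10 called rises and falls per comparison, the 3 smallest p where none was called, and the extremes of strand ratio; entries outside this rule were chosen after their values were seen. Consensus sequences are not printed. Leaving out libraries, other pseudocounts, filters, scalings, a replicate block, robust eBayes, repeats alone and fits on the compared groups alone were tried.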

Additional observations from a re-analysis of the deposited data

How the results depend on the processing

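Counts of ORR1, MT and MLTR features called depended on scaling, on single libraries and on which groups were in the fit. Shares of all features called are given above for the values as deposited and for the 3 scalings in DKO against Trp53 KO. They are not given for the other settings, and a fit without 1 library can leave 1 library in a group. The counts below thus show how calls moved and are not results about these entries. For DKO against Trp53 KO, 28 were called as deposited, 3 after median centring, 2 after quantile normalization, 5 after median-ratio scaling and 0 with only the 2 compared groups. Leaving out 1 library at a time gave 0 (without Trp53 KO library 1) to 29. For DKO against Tdg KO, with 1 called, the count was 7 and 3 with pseudocounts of 1 and 0.01, 2 with no filter, and 0 after each of the 3 scalings, with the replicate block and with only the 2 groups; leaving out 1 library gave 0 to 19. For DKO against WT, with 0 called, it was 1 with either pseudocount and with no filter, and 0 to 14 without 1 library. The interaction, with 0, gave 1 with a pseudocount of 0.01 and 0 to 19 without 1 library. Tdg KO against WT and Trp53 KO against WT, each with 0, gave 0 to 1 without 1 library. KP and the strand balance stayed at 0 in every alternative run, the 3 scalings included. With the replicate number as a block, 25 features were called in DKO against Trp53 KO, 23 of them among the 28, and 0 in each other comparison. Same-numbered libraries did not deviate together (correlations of replicate differences from -0.013 to 0.18 in B16 and 0.034 in KP).

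In DKO against Trp53 KO the following log2 changes reversed, among the features named by the rule above whose deposited change was positive. After median centring they were, in sense and antisense, -1.16 and -1.32 for ORR1AI, -0.65 and -0.27 for ORR1A0, -0.52 and -0.24 for ORR1A_Rn_LTR, -0.22 and -0.065 for ORR1A2_LTR, -0.98 and -0.89 for MTAI, -0.89 and -0.94 for MTA, -1.08 and -0.94 for MTA_Mm_LTR, -0.67 and -1.11 for MTB_Rn_LTR, and -0.054 and -0.13 for MLTR31D_MM, and in sense -0.73 for MLTR25C and -0.43 for MLTR31F_MM. After quantile normalization they were -0.36 and -0.37 for ORR1AI and -0.29 and -0.012 for MTA_Mm_LTR, in sense -0.089 for MTA, -0.47 for MLTR25C and -0.63 for MLTR31F_MM, and in antisense -0.34 for MTB_Rn_LTR. After median-ratio scaling they were -0.57 and -0.72 for ORR1AI, -0.39 and -0.30 for MTAI, -0.29 and -0.34 for MTA, -0.49 and -0.35 for MTA_Mm_LTR and -0.077 and -0.52 for MTB_Rn_LTR, and in sense -0.055 for ORR1A0 and -0.10 for MLTR25C. ORR1AI antisense passed after median centring (adjusted p = 0.0499 by limma). Features outside that rule reversed as well, and the list is not complete. Among them, MTB and MTB_Mm_LTR were called rises on both strands as deposited. In sense and antisense their changes after median centring were -0.78 and -0.53 for MTB and -0.64 and -0.75 for MTB_Mm_LTR. After median-ratio scaling they were -0.19 and 0.059 for MTB and -0.044 and -0.16 for MTB_Mm_LTR. In the interaction, ORR1A_Rn_LTR in sense became -0.094 after median centring. Median centring and median-ratio scaling take 1 shift or factor per library out by construction; under quantile normalization the cause was not tested. Depth limits the low entries: of 20 MLTR features tested in B16 whose length could be inferred, 8 averaged under 3 fragments per library. The MLTR median was 3.81. Of 3 ORR1C and ORR1D features 2 were also under 3 fragments, those of ORR1D1_LTR, whose fragment count is unreliable.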
